A study of Mus musculus with 4 samples.

Results

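Genes of the BMP, TGF-beta and activin signalling pathways were followed in the cortex of mouse embryos with and without functional Pax6. The 36 genes were chosen by name, with earlier results of these data known. They are ligands (12), receptors (11), Smad proteins (8) and inhibitors that act outside the cell or at its surface (5). All 36 were found among the 22770 genes of the deposited table, and each gene identifier matched its symbol in the reference. RNA was sequenced from cortex dissected on embryonic day 16.5 in 4 libraries, 2 from wild-type littermates and 2 from Pax6 sey/sey mutants, all on a mixed C57BL/6J, 129S6 and CD1 background. The Pax6 protein regulates transcription in cortical progenitors, and sey is a germline point mutation, so every cell of the embryo carries it. The labels do not say whether a library came from 1 embryo or a pool, so the p-values measure the spread between these libraries, which may be technical. The comparison asks which genes of the pathway differ between the genotypes.

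Ligands of this superfamily are secreted dimers that bring together type I and type II receptor kinases. The type II receptor activates the type I receptor, which phosphorylates Smad1, Smad5 and Smad9 on the BMP side, or Smad2 and Smad3 on the TGF-beta and activin side. Smad4 is the shared partner, Smad6 and Smad7 inhibit the signal, and secreted proteins such as noggin and follistatin bind ligands before they reach a receptor. In the developing forebrain, BMPs from the dorsal midline and the meninges are known for patterning the dorsal telencephalon.

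The RNA level is given as FPKM, fragments per kilobase of exon scaled to the mapped fragments of each library, which allows genes to be compared per length. Column totals lay between 579698 and 593256 FPKM, and the table gives no fragment totals, so depth can only be estimated from the lowest values, as is done below for genes under the filter. The cortical markers Emx1, Lhx2, Tbr1 and Neurod6 were present in all 4 libraries, and Emx1 (28.97 and 29.9 FPKM against 17.2 and 15.7), Tbr1 (111 and 117 FPKM against 65.5 and 59.3) and Neurod6 (534 and 588 FPKM against 352 and 323) fell. Pax6 itself was 28.8 and 27.02 FPKM against 101 and 120 in the mutants, and since a point mutation leaves a transcript this does not check the labels. Mutant library 1 stood apart in sex-linked genes, with Xist at 350 FPKM against 0.0788 to 0.224 in the other 3 and Ddx3y listed at 0 against 16.5 to 23.3. Markers of GABAergic interneurons (10 genes, highest Dlx1) summed to 168 and 142 FPKM in the wild types against 816 and 932, and 10 of 10 rose. Markers of cortical excitatory neurons and their precursors (10 genes, highest Neurod6) summed to 1232 and 1321 FPKM against 766 and 691, and 7 of 10 fell. Both mutants lay below both wild types for 8 of the 10 and above for 1. That was Bcl11b (29.5 and 31.5 FPKM against 36.6 and 42.9, not called), and the groups of Fezf2 overlapped, so the sum hides different directions. In the limma test described below, 2.02% of all tested genes rose and 1.46% fell. Markers of radial glia (10 genes, highest Fabp7) summed to 989 and 830 FPKM against 924 and 949, of which Pax6 and Sox2 (25.8 and 22.9 FPKM against 78.5 and 93.1) rose and Emx1 fell. In dissected tissue, fewer cells of a type and less RNA per cell cannot be told apart.

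The type I receptor genes Bmpr1b and Tgfbr1 fell in the mutants, and 0 of the 31 tested genes rose. Of the 36 genes 31 qualified for this test, by reaching 0.5 FPKM in no fewer than 2 libraries. The test was limma on log2(FPKM + 0.5), fitted to all 15399 genes that qualified, with p-values adjusted by the Benjamini-Hochberg method and called under 0.05. Every log2 fold change below is mutant minus wild type on the log2(FPKM + 0.5) scale, on which changes of low genes are understated. The called genes were 2 of 31 (6.45%), beside 3.48% of all tested genes in either direction, 1.46% lower and 2.02% higher. An unadjusted p under 0.05 was found for 9 of the 31, beside 19.5% of all tested genes. Both mutants lay on the same side of both wild types for 14 members, or 45.2%, beside 51.6%; 9 were lower and 5 higher, beside 25.8% in each direction. A 95% interval within a 1.5-fold change either way was found for 12 of the 31, beside 50.2%. The median log2 fold change of the 31 was 0.03, with 16 above 0 and 15 below, and that of all tested genes was 0.00062.

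**Figure D1:**
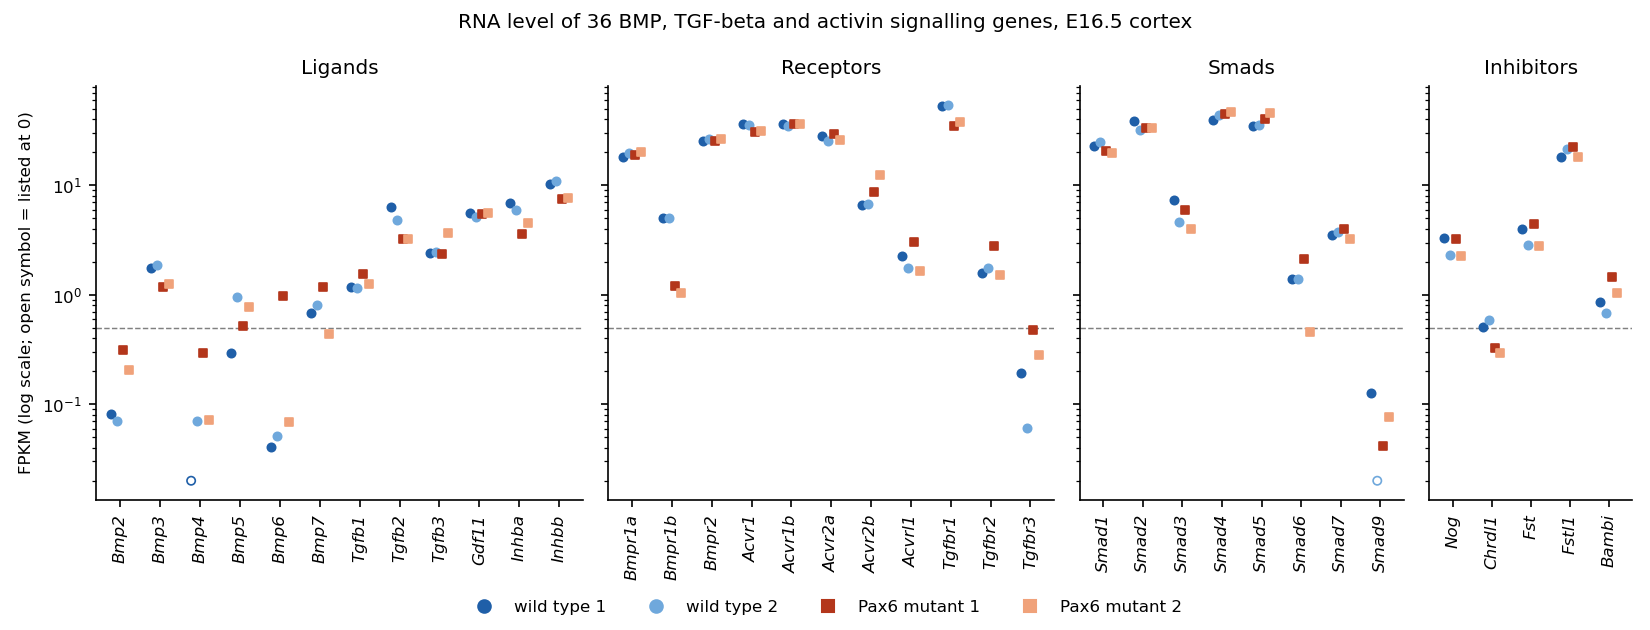
FPKM (log axis) of the 36 genes in each library, grouped by role; circles are wild types, squares are Pax6 mutants, the dashed line is the filter of 0.5 FPKM and open symbols are genes listed at 0. Bmpr1b lies at 5.004 and 5.01 FPKM for the circles and at 1.21 and 1.03 for the squares, and Tgfbr1 at 53.4 and 54.5 against 35.01 and 38.2.

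Bmpr1b codes for a BMP type I receptor kinase (ALK6). Its level was 5.004 and 5.01 FPKM in wild-type cortex and 1.21 and 1.03 in mutant cortex. Both mutants lay far below both wild types, and the libraries of each genotype were close together. The wild-type mean of 5.005 ± 0.00103 FPKM (SD, n = 2) was 4.46 times the mutant mean of 1.12 ± 0.126, and the log2 fold change was -1.77 (SE 0.18, 95% interval -2.23 to -1.30, limma adjusted p = 0.0210). Leaving out 1 library kept the size and ended the call. The log2 fold change was -1.84 without mutant library 1 and -1.69 without mutant library 2 (limma adjusted p = 0.0792 and 0.130), and -1.77 without either wild-type library (adjusted p = 0.163 and 0.179). An exact two-sided permutation test of 2 against 2 libraries cannot give a p below 0.33.

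Tgfbr1 codes for the TGF-beta type I receptor kinase (ALK5), which signals through Smad2 and Smad3. It had the highest mean of the 36 genes in the wild types, with 53.4 and 54.5 FPKM in wild-type cortex and 35.01 and 38.2 in mutant cortex. The groups did not overlap, and the mean fell from 53.9 ± 0.775 to 36.6 ± 2.29 FPKM (SD, n = 2). The log2 fold change was -0.55 (SE 0.07, 95% interval -0.74 to -0.36, limma adjusted p = 0.0338). Here too each left-out library ended the call, with limma adjusted p of 0.113 and 0.135 without mutant library 1 and 2 and 0.1897 and 0.217 without wild-type library 1 and 2. The log2 fold change then ranged from -0.49 to -0.62. The Tgfbr1 call was also lost without the mean-variance trend (adjusted p = 0.111), and both receptor calls were lost when all 22770 genes entered the fit (adjusted p = 0.0677 for Bmpr1b and 0.0761 for Tgfbr1).

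The authors' deposited table gives a p-value of its own for each gene. There the p for Tgfbr1 was 0.0936, the lowest of the 36, with a ratio of mutant to wild type of 0.680. For Bmpr1b the authors' deposited table has p = 0.289 and a ratio of 0.224. Of the 36 genes, 0 had a p under 0.05 in the authors' deposited table, beside 1.83% of all rows and 2.58% of the genes tested here. The interneuron markers, 7 of the 10 excitatory neuron markers and 3 of the 10 radial glia markers given above moved with genotype beside both receptors. Their part in these falls was not tested.

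In GRCm38, Bmpr1b (ENSMUSG00000052430) lies on chromosome 3 from 141837136 to 142169425 on the minus strand, and Tgfbr1 (ENSMUSG00000007613) on chromosome 4 from 47353222 to 47414931 on the plus strand. No other annotated gene overlaps the exons of either, whereas 11 of the 36 genes share exon bases with another annotated gene and are less certain (Bmp4, Bmp5, Bmp6, Tgfb2, Tgfb3, Bmpr1a, Acvr2a, Acvrl1, Tgfbr3, Smad5 and Fst). The sequences upstream of both are shown because these were the members that passed the test. Each is the 250 bases before a start site annotated by RefSeq (GRCm38.p6), 5′ to 3′ on the strand of the gene, in a window that holds no annotated exon. Both genes have further annotated start sites, and gene-level FPKM do not tell which were used. Capitals mark the letters searched for on either strand: GGCGCC, a GC-rich box bound by BMP-side Smads, CAGAC, a short Smad box, and TAATTA, a homeodomain core. None of the marked matches overlaps another.
Bmpr1b, chr3:141982265-141982514, minus strand: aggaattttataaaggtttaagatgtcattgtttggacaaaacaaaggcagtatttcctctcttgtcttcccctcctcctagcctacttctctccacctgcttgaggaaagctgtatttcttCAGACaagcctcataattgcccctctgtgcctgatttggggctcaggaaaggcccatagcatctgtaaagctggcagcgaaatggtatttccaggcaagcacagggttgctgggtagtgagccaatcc
Tgfbr1, chr4:47352972-47353221, plus strand: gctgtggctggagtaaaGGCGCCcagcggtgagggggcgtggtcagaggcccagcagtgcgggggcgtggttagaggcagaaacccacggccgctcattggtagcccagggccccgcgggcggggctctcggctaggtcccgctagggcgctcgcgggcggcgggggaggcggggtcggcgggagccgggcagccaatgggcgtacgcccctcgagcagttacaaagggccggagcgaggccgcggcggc
The Bmpr1b window held 1 CAGAC, at position -128 counted from the start site, and the Tgfbr1 window 1 GGCGCC, at position -233. Among the windows not shown, a further Bmpr1b window held CAGAC at position -245 and a further Tgfbr1 window held it at position -203. CAGAC was thus found before both genes, and GGCGCC only before Tgfbr1. A last Bmpr1b window, which overlaps annotated exons, held none of the searched letters. The Bmpr1b window shown lies inside the annotated span of the gene, downstream of its outermost start. Over 32817 annotated windows of the same length, 42.2% held CAGAC, 9.59% GGCGCC and 4.84% TAATTA, which neither window shown held. The Tgfbr1 window was 74.8% G and C and the Bmpr1b window 46.8%, beside a median of 52.4%. These are matches of letters, not measured sites.

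The other type I receptor genes were not called. Bmpr1a, which codes for the BMP type I receptor ALK3, was 18.03 and 19.9 FPKM in wild-type cortex and 18.9 and 20.1 in mutant cortex. Its groups overlapped, and the 95% interval of its log2 fold change was -0.20 to 0.28. That interval does not overlap the interval of Bmpr1b, but the difference between both genes was not itself tested. Acvr1b, the gene of the activin type I receptor ALK4, was 36.1 and 34.6 FPKM against 36.2 and 36.03 (interval -0.14 to 0.20). Acvr1 (ALK2), a type I receptor for BMPs that also binds activin, was 36.5 and 35.3 FPKM in wild-type cortex and 30.6 and 31.3 in mutant cortex. Both mutants were lower, with a log2 fold change of -0.21 and a limma adjusted p of 0.199. Acvrl1 (ALK1), a receptor of endothelial cells, was 2.24 and 1.74 FPKM against 3.02 and 1.64, with the highest value in mutant library 1.

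Of the summed FPKM of the 6 type I receptors, Tgfbr1 made up 35.3% and 36.1% in the wild types and 28.03% and 29.8% in the mutants. Acvr1b made up 23.9% and 22.9% against 28.9% and 28.1%, and Bmpr1b 3.31% and 3.32% against 0.969% and 0.804%. The shares of Bmpr1a (11.9% and 13.2% against 15.2% and 15.7%) and Acvr1 (24.1% and 23.4% against 24.5% and 24.4%) did not overlap either, and Acvrl1 was the only one of the 6 whose groups did. Shares of 1 sum are not independent, since a fall in Tgfbr1 raises the others, and they are given as a description. Within the 3 BMP type I receptors alone, Bmpr1b was 8.404% and 8.32% of the sum in the wild types and 2.39% and 1.97% in the mutants. Acvr1 and Bmpr1a therefore made up most of this RNA in both genotypes. The 6 genes summed to 151 ± 0.211 FPKM in the wild types and 127 ± 2.47 in the mutants (SD, n = 2).

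**Figure D2:**
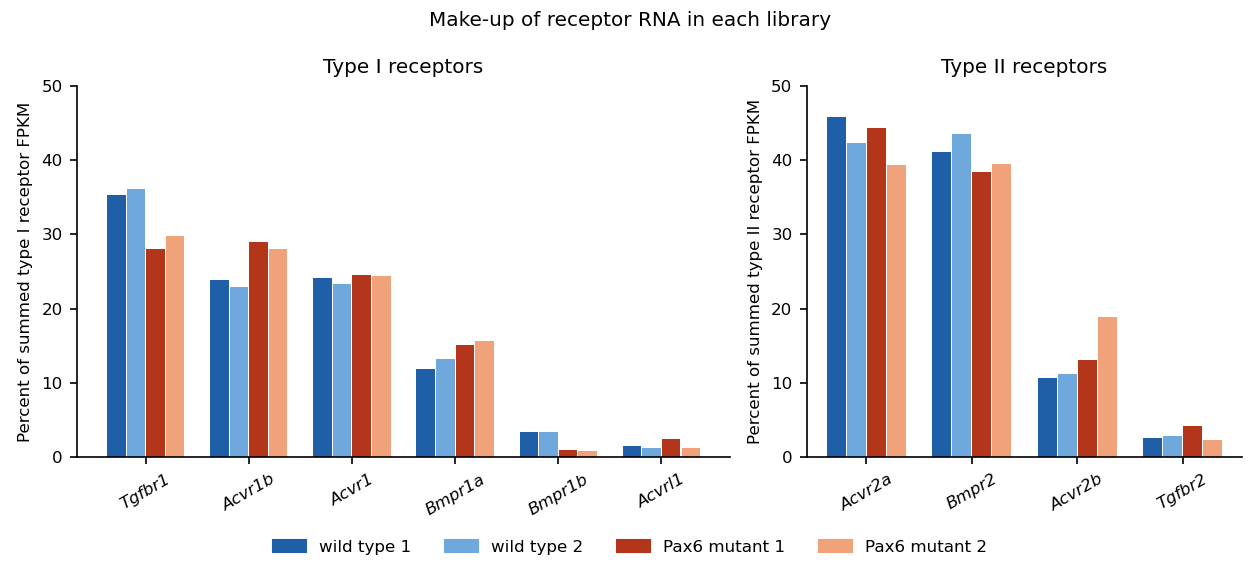
Percent of the summed FPKM of the 6 type I receptors (left) and the 4 type II receptors (right) made up by each gene, with 1 bar per library. Tgfbr1 takes 35.3% and 36.1% of the type I sum in the wild types and 28.03% and 29.8% in the mutants, and Acvr2b takes 18.8% of the type II sum in mutant library 2 against 10.6% to 13.1% in the other 3.

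Type II receptor genes were not called. Bmpr2, the BMP type II receptor gene, was 25.5 and 26.3 FPKM in wild-type cortex and 25.3 and 26.2 in mutant cortex, with an interval of -0.20 to 0.18. Acvr2a, an activin and BMP type II receptor gene, was 28.4 and 25.6 FPKM against 29.2 and 26.2. It shares exon bases with Orc4 on the other strand, and since strand use is not stated its value is uncertain. Acvr2b, its close relative, was 6.59 and 6.797 FPKM in wild-type cortex and 8.65 and 12.5 in mutant cortex. The mutants were higher without overlap and differed more from each other than the wild types did, with a log2 fold change of 0.60 (SE 0.19) and a limma adjusted p of 0.194. Tgfbr2, the TGF-beta type II receptor gene, was 1.59 and 1.75 FPKM against 2.78 and 1.52, far below Tgfbr1 in every library. Tgfbr3 (betaglycan), a co-receptor that presents TGF-beta ligands, was under the filter at 0.0611 to 0.473 FPKM. Of the 10 tested receptors 2 fell and 0 rose, beside 3.48% of all tested genes called in either direction. Of those 10, 4 had an unadjusted limma p under 0.05, beside 19.5% of all tested genes. The median log2 fold change of the 10 was 0.03.

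**Figure D3:**
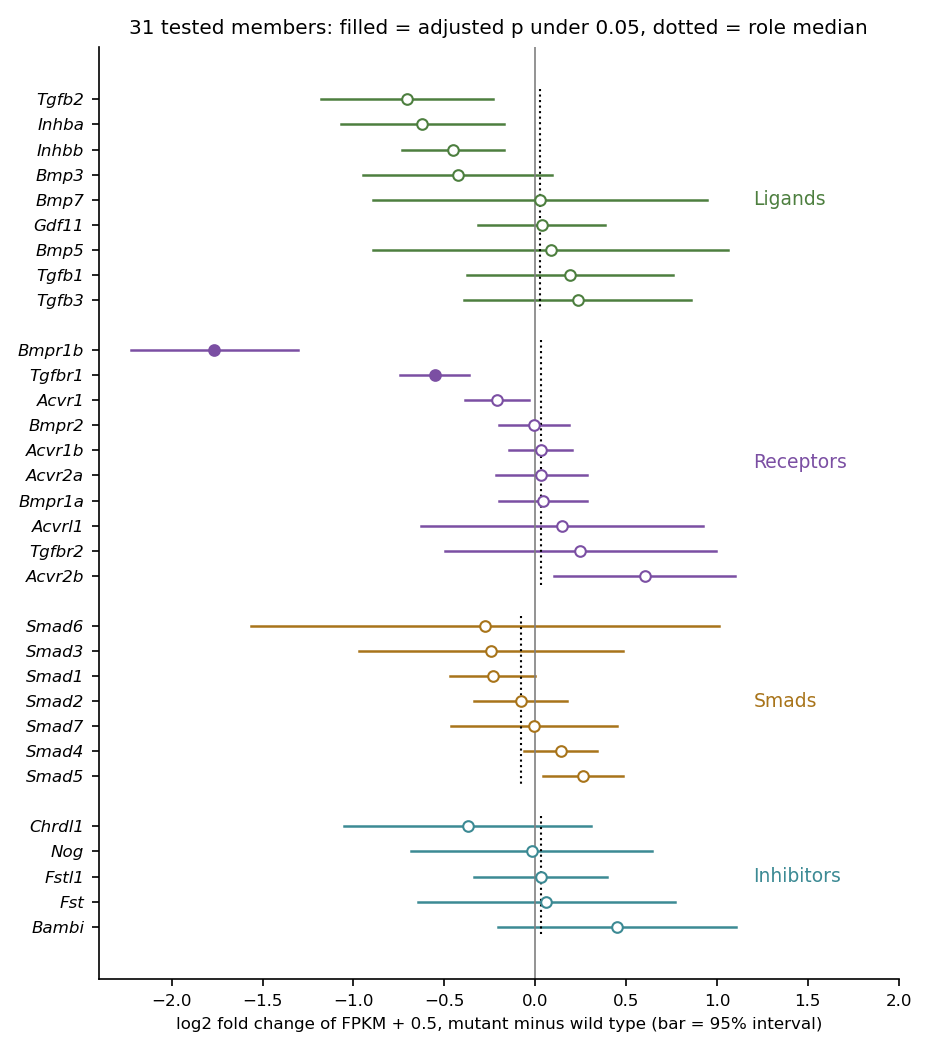
Log2 fold change of FPKM + 0.5 (mutant minus wild type) with its 95% interval for the 31 tested genes, by role, filled where the adjusted p was under 0.05, with a dotted line at the median of each role. Bmpr1b at -1.77 and Tgfbr1 at -0.55 are filled, and the role medians lie between -0.08 for Smads and 0.03.

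Ligand RNA was low next to receptor RNA. The 12 ligand genes summed to 35.04 ± 1.02 FPKM in the wild types and 28.5 ± 0.342 in the mutants, and the 11 receptor genes to 213 ± 1.4996 and 193 ± 2.71 (SD, n = 2 for each). Of the 9 tested ligands limma called 0, and 3 had an unadjusted p under 0.05, beside 19.5% of all tested genes: Inhbb, Tgfb2 and Inhba. Both mutants were below both wild types for 4 of the 9, these 3 among them, and above for 1. Of all tested genes 25.8% lay apart in each direction. The 3 were picked by p, so their separation is no further support. Inhbb, which codes for the beta B subunit of activin and inhibin, had the highest mean of the 12 ligand genes in both genotypes. It was 10.4 and 10.9 FPKM in wild-type cortex and 7.58 and 7.65 in mutant cortex (log2 fold change -0.45, SE 0.11, limma adjusted p = 0.112). Inhba, which codes for the beta A subunit, was 6.95 and 6.02 FPKM against 3.59 and 4.53 (-0.62, SE 0.17, adjusted p = 0.151). Activins are dimers of beta subunits, and both genes together summed to 17.3 and 16.9 FPKM in the wild types against 11.2 and 12.2. The inhibin alpha subunit gene Inha, outside the 12 and named after its values were seen, had a higher mean than Inhbb in both genotypes. It was 16.4 and 16.5 FPKM in wild-type cortex and 16.2 and 11.7 in mutant cortex (limma adjusted p = 0.480). Tgfb2, the TGF-beta gene with the highest mean in the wild types, was 6.39 and 4.84 FPKM against 3.23 and 3.21 (-0.71, SE 0.18, adjusted p = 0.131), and it shares exon bases with Gm29491. The adjusted p-values of Inhbb, Inhba and Tgfb2 missed the threshold, which neither calls them lower nor shows them equal.

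The remaining TGF-beta ligands and Gdf11 differed less. Tgfb1 was 1.18 and 1.14 FPKM in wild-type cortex and 1.56 and 1.25 in mutant cortex, higher in both mutants (limma adjusted p = 0.690). Tgfb3 was 2.401 and 2.46 FPKM against 2.34 and 3.68, with mutant library 2 apart from the other 3, and it shares exon bases with other annotated genes. Gdf11, a ligand that limits neuron production in several tissues, was 5.64 and 5.16 FPKM against 5.497 and 5.59, with a 95% interval of -0.31 to 0.38.

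BMP ligands were scarce. The 6 genes summed to 2.84 and 3.83 FPKM in the wild types against 4.47 and 2.83. Bmp3, an unusual member that opposes BMP signalling, had the highest mean of them in both genotypes, with 1.75 and 1.89 FPKM in wild-type cortex and 1.19 and 1.27 in mutant cortex. Both mutants were lower, with a log2 fold change of -0.43 and a limma adjusted p of 0.337. Bmp7 was 0.676 and 0.802 FPKM against 1.19 and 0.441, and its log2 fold change of 0.03 was -0.40 without mutant library 1. Bmp5 was 0.296 and 0.953 FPKM against 0.521 and 0.775, and its exons overlap Gm26903, so its value is uncertain. Bmp2, Bmp4 and Bmp6 were under the filter and were not tested.

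Those low genes rest on few fragments. The most frequent low value of FPKM times kilobases of exon, taken as about 1 fragment, was 0.107 and 0.141 in the wild types and 0.127 and 0.0931 in the mutants. On that scale Bmp2, at 0.0817 and 0.0697 FPKM against 0.313 and 0.208, rests on about 2.7 and 1.8 fragments against about 8.8 and 7.9. Bmp4 was listed at 0 in wild-type library 1, with 0.0699 FPKM in wild-type library 2 and 0.296 and 0.0725 in the mutants, which is at most about 5.2 fragments. Bmp6 was 0.968 FPKM in mutant library 1 and 0.0404 to 0.0685 in the other 3. Its value in mutant library 1 stands for about 29.7 fragments and the others for about 1.4 to 2.9. Smad9 was at or below 0.127 FPKM in every library and listed at 0 in wild-type library 2.

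The Smad genes were not called. Smad4 had the highest mean of them in both genotypes, with 39.5 and 43.8 FPKM in wild-type cortex and 45.1 and 46.6 in mutant cortex and an interval of -0.06 to 0.34. On the BMP side Smad1 was 22.7 and 25.0 FPKM against 20.7 and 19.6, and Smad5 was 35.1 and 35.97 FPKM against 40.1 and 45.5. For both genes the groups did not overlap, in opposite directions: the log2 fold change was -0.23 for Smad1 (limma adjusted p = 0.252) and 0.26 for Smad5 (adjusted p = 0.196). On the TGF-beta and activin side Smad2 was 38.3 and 32.3 FPKM against 33.2 and 33.4. Smad3 was 7.39 and 4.66 FPKM against 5.93 and 4.02, lower than Smad2 in every library, and its genotype means differed by less than its replicates did. Of the inhibitory Smads, Smad7 was 3.49 and 3.78 FPKM against 4.03 and 3.23. Smad6 was 1.41 and 1.41 FPKM against 2.102 and 0.454, so its mutants lay on opposite sides of the wild types. In all, 5 of the 7 tested Smads had an interval within 1.5-fold, beside 50.2% of all tested genes. Of the 7, 2 had an unadjusted limma p under 0.05, beside 19.5%, and their median log2 fold change was -0.08.

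Inhibitors were not called either: 0 of 5 had an adjusted or an unadjusted limma p under 0.05, beside 3.48% and 19.5% of all tested genes. The median log2 fold change of the 5 was 0.03. Fstl1, which codes for a secreted follistatin-like protein, had the highest mean of the group, with 18.2 and 21.3 FPKM in wild-type cortex and 22.5 and 18.03 in mutant cortex. Nog, which codes for the BMP-binding protein noggin, was 3.28 and 2.299 FPKM against 3.25 and 2.25. Fst, which codes for the activin-binding protein follistatin, was 4.005 and 2.84 FPKM against 4.45 and 2.81. For Nog and Fst the genotype means differed by less than the replicates did. Bambi, a membrane pseudoreceptor gene, was 0.853 and 0.679 FPKM against 1.44 and 1.03, higher in both mutants (log2 fold change 0.45, limma adjusted p = 0.410). Chrdl1, a secreted BMP antagonist gene, was 0.511 and 0.584 FPKM against 0.325 and 0.293, lower in both mutants (-0.37, adjusted p = 0.510). Chrdl1 passed the filter through its wild types alone, so its direction, and its place among the 9 members lower in both mutants, is tied to the filter.

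Several members differed more between the mutant libraries than between the genotypes. Among all 36 genes, 9 were highest in mutant library 1 and more than 1.5 times their level in mutant library 2: Bmp6, Smad6, Bmp4, Bmp7, Acvrl1, Tgfbr2, Tgfbr3, Fst and Bmp2. Of these 5 were above the filter, or 16.1% of the 31 tested genes, beside 4.84% of all tested genes. The level in mutant library 1 was 4.63 times that in mutant library 2 for Smad6, 2.69 times for Bmp7, 1.84 times for Acvrl1 and 1.82 times for Tgfbr2. The opposite difference was seen for 1 tested member, Tgfb3, with 1.57 times the level in mutant library 2. These genes were picked by their values, so the counts are a description. Mutant library 1 also stood apart in the sex-linked genes Xist and Ddx3y. Sex and other differences between the mutant libraries cannot be told apart. For Bmp2 and Tgfbr3, both under the filter, the genotype means differed by more than the mutant libraries did.

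Markers of other cell types also differed between the mutant libraries. The 14 meningeal fibroblast markers (highest Cxcl12) summed to 29.6 and 26.4 FPKM in the wild types, 69.7 in mutant library 1 and 38.2 in mutant library 2, and 12 of the 14 were highest in mutant library 1. Foxc2, Slc6a13 and Twist1 of that list were at 0 in at least 1 library. The 10 endothelial markers (highest Cldn5) summed to 72.7 and 70.5 FPKM against 91.4 and 71.4, and 9 of the 10 were highest in mutant library 1. Of all tested genes 22.3% were highest in that library, and of the 9 tested meningeal markers 8. In both mutants 7 of the 10 endothelial markers lay above both wild types, beside 25.8% of all tested genes in each direction. In both mutants 1, Slco1c1, lay below (20.6 and 19.5 FPKM against 14.1 and 11.7), so the sum hides the opposite directions. Of the meningeal markers 8 of 14, among them 6 of the 9 tested, lay above both wild types in both mutants and 0 below. Limma called 0 genes of either list, with 4 of each at an unadjusted p under 0.05, beside 19.5% of all tested genes. Of those 4 meningeal genes, Col1a1, Slc6a13 and Crabp2 passed the filter through the mutants alone. Their direction, and their place among the 6, is tied to the filter. The part of meningeal and endothelial cells in the values of Bmp6, Smad6, Bmp7, Acvrl1 and Tgfbr2 was not tested. The 7 pericyte markers (highest Rgs5) summed to 46.6 and 42.9 FPKM against 54.6 and 49.4, and the 7 microglial markers (highest P2ry12) to 19.4 and 23.7 against 20.9 and 17.8. Of the 10 markers of the cortical hem and choroid plexus, a dorsal midline source of BMPs, 6 were listed at 0 in at least 1 library: Lmx1a, Wnt3a, Wnt8b, Rspo1, Otx2 and Folr1. That list (highest Rspo3) summed to 12.3 and 13.3 FPKM against 8.76 and 7.42.

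**Figure D4:**
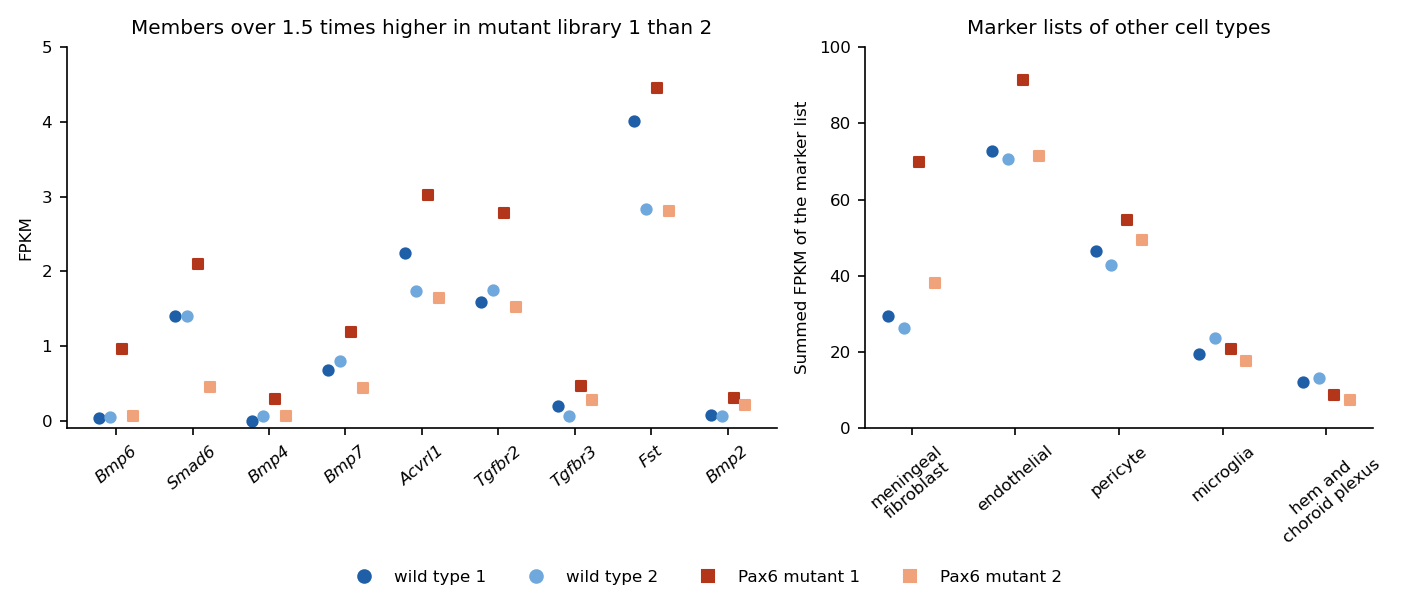
Left, FPKM of the 9 members that were highest in mutant library 1 and more than 1.5 times their level in mutant library 2; right, summed FPKM of marker lists of other cell types, with 1 point per library. Bmp6 lies at 0.968 FPKM in mutant library 1 and at 0.0685 or less elsewhere, and the meningeal fibroblast sum at 69.7 FPKM there against 26.4 to 38.2.

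A further 86 genes of the pathway were listed by textbook role, with earlier results of these data known. Of them 79 were in the table and 55 were tested. Of the 55 tested, 3 were called (5.45%, beside 3.48% of all tested genes in either direction). All 3 rose and 0 fell, beside 2.02% of all tested genes called higher and 1.46% lower. An unadjusted limma p under 0.05 was found for 12 of the 55, beside 19.5% of all tested genes. The median log2 fold change of the 55 was 0.02. Rgmb, which codes for a BMP co-receptor, rose, with 28.7 and 28.1 FPKM in wild-type cortex and 38.7 and 40.6 in mutant cortex (log2 fold change 0.47, SE 0.07, limma adjusted p = 0.0394). Its relative Rgma, named after its values were seen, was 31.2 and 31.03 FPKM against 27.2 and 21.8 (-0.35, adjusted p = 0.214), and an antisense gene overlaps its exons. A fit with a replicate block gave Rgmb an adjusted p of 0.0672.

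The other genes that rose were Id1 and Id4, from a list of 12 textbook targets of BMP and TGF-beta signals of which 7 were tested. Id proteins hold back basic helix-loop-helix factors. Id1 rose, with 8.29 and 6.34 FPKM in wild-type cortex and 14.7 and 14.04 in mutant cortex (log2 fold change 0.94, SE 0.15, limma adjusted p = 0.0484). It was close to the threshold, with an adjusted p of 0.0550 when the replicate number entered as a block, 0.0505 at a pseudocount of 0.1 and 0.0501 after quantile normalization. Id4 rose from 18.7 and 22.1 FPKM to 33.5 and 36.4 (0.77, SE 0.11, adjusted p = 0.0357), but its exons overlap antisense genes, so its value is uncertain. Id3 was 6.83 and 3.697 FPKM against 12.8 and 8.66 (0.99, SE 0.33, adjusted p = 0.199). Id2, named after its values were seen, was 427 and 399 FPKM against 396 and 346 (-0.16, adjusted p = 0.382). Msx1, a BMP target of the dorsal midline, was listed at 0 in wild-type library 1 and was 0.138 FPKM in wild-type library 2, and the mutants had 0.732 and 0.0922 FPKM. Endothelial cells also express Id genes, and the part of those cells, whose marker sums are given above, was not tested. For Id1, Id4 and Rgmb, leaving out any 1 library ended the call, with limma adjusted p of 0.124 to 0.232. The same held with no filter on low values (0.0765 to 0.111) and with no mean-variance trend (0.106 to 0.122).

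**Figure D5:**
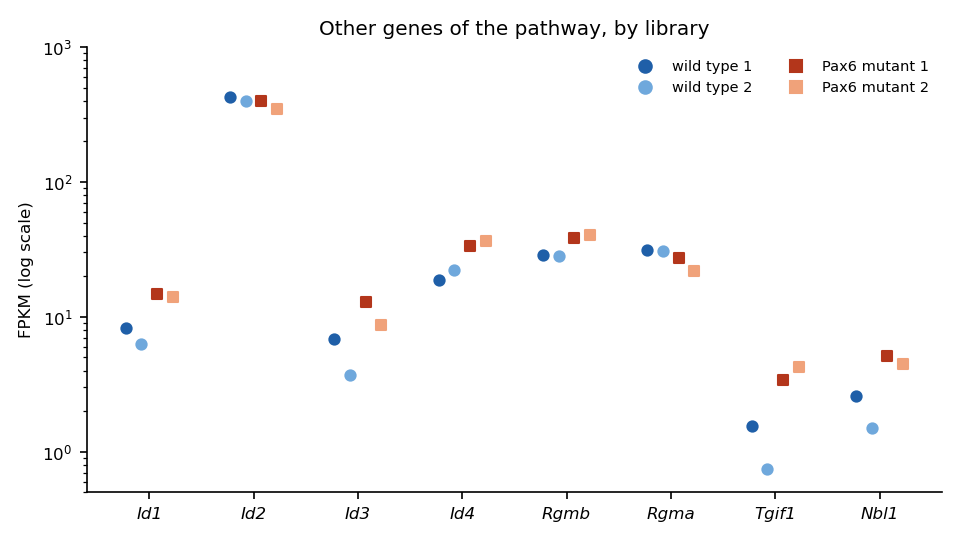
FPKM (log axis) of further genes of the pathway in each of the 4 libraries; circles are wild types and squares are Pax6 mutants. Id1, Id4 and Rgmb, which rose, have both squares above both circles, with Id1 at 8.29 and 6.34 FPKM against 14.7 and 14.04.

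The other lists of further pathway genes had 0 called genes in limma. An unadjusted limma p under 0.05 was found for 1 of 6 tested ligands and 1 of 10 inhibitors. It was also found for 3 of 11 matrix and activation genes and 2 of 17 intracellular regulators, beside 19.5% of all tested genes. The ligand was Amh, named after its values were seen, at 0.123 and 0.234 FPKM in wild-type cortex and 0.704 and 0.573 in mutant cortex. Amh passed the filter through the mutants alone, so its direction is tied to the filter. Among the intracellular regulators 14 of 17 had an interval within 1.5-fold, beside 50.2% of all tested genes. Tgif1, a Smad co-repressor gene named after its values were seen, was 1.55 and 0.751 FPKM in wild-type cortex and 3.41 and 4.21 in mutant cortex (log2 fold change 1.42, limma adjusted p = 0.0846). Nbl1, a secreted BMP antagonist gene named in the same way, was 2.61 and 1.51 FPKM against 5.11 and 4.46 (1.08, adjusted p = 0.113).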

How the data were processed

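The authors deposited 1 table with an FPKM value per gene and library, and beside them a group FPKM, a ratio of mutant to wild type and a p-value, per the file headers. TopHat2 2.0.9, Cufflinks 2.2.1, edgeR and the builds GRCm38.p4 and mm10 appear in the submitters' processing notes, with no role given. Which test gave the deposited p-value is not stated. For strand use, no statement was found in the sources used here.

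Genes under 0.5 FPKM in more than 2 of the 4 libraries were dropped. The genotypes were compared in limma 3.58.1 under R 4.3.3 (eBayes with trend, 3.05 prior degrees of freedom) on log2(FPKM + 0.5), adjusted by Benjamini-Hochberg over 15399 genes. The script was first tested on simulated data, with changes placed in genes of higher level. It called 14% of 1.5-fold, 72% of 2-fold and 92% of 4-fold changes, and 15 of its 153 calls were false. Coordinates and exon overlaps are those of GENCODE M21 on GRCm38, counted from 1. Alternatives were the pseudocount, the filter, the trend, scaling between libraries, a replicate block and leaving out each library. All 36 genes are named, with the called genes among further pathway genes and Id1, Id3 and Msx1. The members and lists were chosen with earlier results of these data known. Of the listed pathway genes, 7 were not analysed here.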

Additional observations from a re-analysis of the deposited data

How the results depend on the processing

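The fall of Bmpr1b and Tgfbr1 kept its direction in every alternative run. Both limma calls held with a pseudocount of 0.1 or 1, a filter of 1 FPKM, median-ratio scaling, quantile normalization and the replicate number as a block (adjusted p = 0.0392 and 0.0494). Deviations of same-numbered libraries correlated at 0.0492 and the labels give the numbers no meaning, so the block is not taken as a pairing. With it, 374 genes were called in place of 536, and of the further pathway genes only Id4 in place of 3. Without a filter on low values 61 genes were called, with 0 members and 0 further pathway genes. With no mean-variance trend there were 54 called genes, 1 member (Bmpr1b) and 0 further genes. Leaving out 1 library, where the lone library is assumed to vary like the other group, left 7 to 59 called genes, 0 members and 0 further genes. The cause was not tested.

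The median log2 fold change of the 9 tested ligands was 0.0254, which is the value of Bmp7. It was -0.43 with a filter of 1 FPKM, which drops Bmp5 and Bmp7, and ran from -0.391 to -0.0228 with 1 library left out. The same ranges were -0.0718 to 0.017 for receptors, -0.165 to 0.117 for Smads and -0.229 to 0.205 for inhibitors. Bmp7 was -0.0048 with a pseudocount of 0.1 and -0.0191 with quantile normalization, and no other member changed sign in the 8 alternatives that keep all libraries. With 1 library left out, 17 members changed sign, none of them called, with these ranges of log2 fold change: Bmp5 -0.349 to 0.520, Bmp7 -0.396 to 0.447, Tgfb3 -0.0452 to 0.512, Gdf11 -0.0228 to 0.0939, Bmpr1a -0.0271 to 0.112, Bmpr2 -0.0328 to 0.0188, Acvr1b -0.001 to 0.0611, Acvr2a -0.0432 to 0.113, Acvrl1 -0.209 to 0.506, Tgfbr2 -0.1003 to 0.595, Smad2 -0.202 to 0.0404, Smad3 -0.550 to 0.0623, Smad6 -0.9996 to 0.448, Smad7 -0.147 to 0.133, Nog -0.245 to 0.205, Fst -0.229 to 0.352, Fstl1 -0.125 to 0.185. With few fragments behind them, genes near 0.5 FPKM are the least certain.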
